A study of Mus musculus with 6 samples.

Results

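The lipid droplet genes described here are 10 genes for the lipases that release fatty acids from stored triglyceride and for the proteins that coat the droplet, measured in mouse soleus. They comprise the lipases Pnpla2 and Lipe, the lipase cofactor Abhd5, the lipase inhibitor G0s2, the perilipin coats Plin1, Plin2, Plin4 and Plin5, and the droplet-fusion proteins Cidea and Cidec. Each was taken as the probe feature of the array whose only gene symbol was that of the gene. All 10 had exactly 1 such feature, so that none was selected on its mean signal over the 6 arrays, the measured value that would have decided between several. The genes themselves were chosen by name with the cKO and Control values of these arrays, among them those of Pnpla2 and Lipe, already known. They are 10 of 30142 genes with a feature of their own on the array, and all 10 passed the filter that left 33334 features and 18334 genes to test. A feature was tested when it exceeded its array's median on 3 or more of the 6 arrays, and each of the 10 did so on all 6. Coats known mainly from adipocytes (Plin1, Plin4, Cidea, Cidec) were kept apart from those used in oxidative muscle fibres (Plin2, Plin5).

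Total RNA from the soleus, a postural calf muscle rich in slow oxidative fibres, was hybridised to whole-transcript arrays, 1 array per male mouse. The 3 cKO mice carried the DMP1 Cre Mbtps1 knockout, and the 3 Control mice were littermates labelled wild type. All were 39 to 41 weeks old. Mbtps1 encodes site-1 protease, which activates membrane-bound transcription factors including the sterol-responsive SREBPs, and Dmp1 is best known as a gene of osteocytes, so the Cre need not act in most cells of the muscle.

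Muscle fibres store triglyceride in droplets beside their mitochondria. ATGL, the product of Pnpla2, removes the first fatty acid. It is activated by the Abhd5 protein (CGI-58) and blocked by the G0s2 protein. Hormone-sensitive lipase, from Lipe, then acts on the diglyceride. Plin5 ties droplets to mitochondria and holds Abhd5 away from ATGL, Plin2 coats droplets in most cells, and Plin1 guards the large droplet of adipocytes. Cidec and Cidea promote droplet growth, Cidec in white and Cidea in brown fat, and Plin4 is abundant in white fat but is also made in muscle.

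The regions just before the start sites of Pnpla2, G0s2 and Lipe are shown because these are the lipolysis genes whose cKO and Control arrays did not overlap. Each is the 250 bases before a RefSeq start on GRCm38.p6, written 5′ to 3′ on the strand of the gene. Lipe has 2 starts in the table. Capitals mark a match, on either strand, to CACGTG, the E-box bound by clock factors and SREBPs, or to GTAAACA, the core bound by FOXO factors. Pnpla2 lies on the plus strand at chr7:141454938-141455187, G0s2 on the minus strand at chr1:193273189-193273438, and Lipe on the minus strand at chr7:25395988-25396237 (start 1) and chr7:25390113-25390362 (start 2).
Pnpla2: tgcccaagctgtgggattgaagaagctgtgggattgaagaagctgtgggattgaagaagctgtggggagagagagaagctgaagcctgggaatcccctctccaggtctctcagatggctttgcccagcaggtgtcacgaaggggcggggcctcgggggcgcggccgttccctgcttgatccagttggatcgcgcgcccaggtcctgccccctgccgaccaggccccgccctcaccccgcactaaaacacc
G0s2: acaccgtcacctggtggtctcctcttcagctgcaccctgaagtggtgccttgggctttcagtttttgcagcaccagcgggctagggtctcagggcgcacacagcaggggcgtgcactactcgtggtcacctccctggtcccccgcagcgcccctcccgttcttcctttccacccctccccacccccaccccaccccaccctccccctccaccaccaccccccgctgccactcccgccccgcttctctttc
Lipe start 1: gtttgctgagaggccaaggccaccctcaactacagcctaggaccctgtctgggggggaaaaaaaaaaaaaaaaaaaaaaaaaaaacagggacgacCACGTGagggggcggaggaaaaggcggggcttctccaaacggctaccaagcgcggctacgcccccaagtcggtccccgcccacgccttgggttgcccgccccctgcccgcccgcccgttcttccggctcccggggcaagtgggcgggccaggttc
Lipe start 2: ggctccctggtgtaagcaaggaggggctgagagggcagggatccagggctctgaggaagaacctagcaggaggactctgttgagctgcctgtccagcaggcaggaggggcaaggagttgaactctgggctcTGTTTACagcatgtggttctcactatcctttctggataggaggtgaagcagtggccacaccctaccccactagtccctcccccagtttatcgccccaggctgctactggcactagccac

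RefSeq windows were matched for 9 of the 10 genes, with 12 windows in all. The E-box letters occurred in 1 window, that of Lipe start 1, and in 6.02% of all 32851 promoter windows of the same length. The FOXO core occurred in 1, that of Lipe start 2, and in 3.17% of all windows. The 2 motifs share no match, and a match is a description of letters only.

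In cKO soleus both lipases had higher signals than in Control soleus on every array. G0s2, whose protein blocks ATGL, had a lower one on every array, while the cofactor and the fibre coats overlapped between groups. Of the adipocyte coats, Plin1 and Cidec were higher on every cKO array, and Plin4 and Cidea overlapped. None of the 10 genes passed a false discovery threshold: limma's adjusted p, over all 33334 features, was 0.999 for each. Taken singly, the 5 genes without overlap had a two-sided exact permutation p of 0.1, the lowest that 3 arrays against 3 allow. Of all features tested, 0 passed (0%), and 1501 (4.5%) had an unadjusted p under 0.05, against 5 of the 10 genes. The groups did not overlap for 5 of the 10 genes, 4 higher and 1 lower in cKO, against 11% of all features (8.95% higher and 2.05% lower). Because of how the genes were chosen, their count is not independent evidence. Differences above 0 were found for 7 of the 10, a share close to the 65.8% of all features. The median difference was 0.36 log2 units for the 10 genes and 0.07 for all features tested, and the median size of the difference was 0.37 and 0.15 log2 units.

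**Figure D1:**
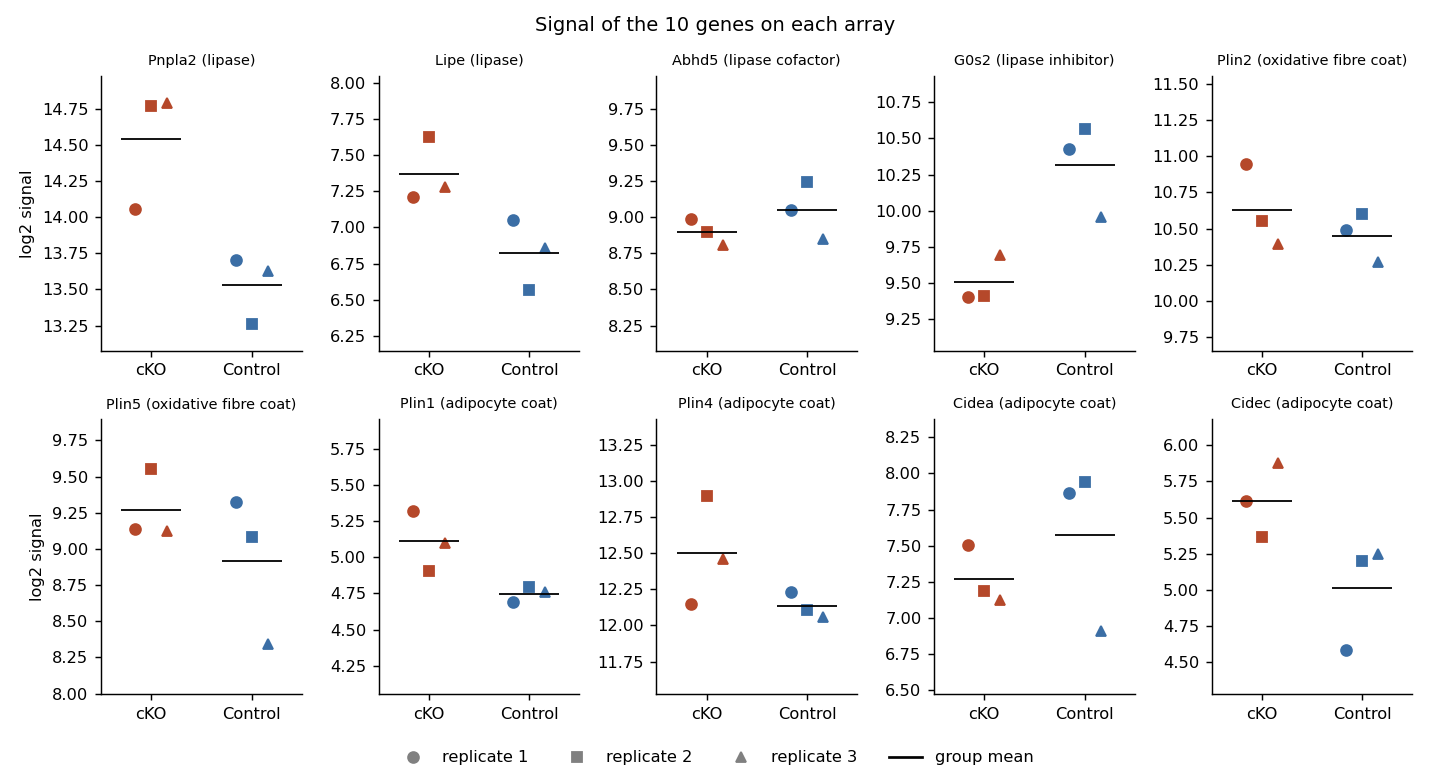
Log2 signal (vertical axis, each panel spanning the same width of log2 units) of the 10 genes on each array, with cKO left and Control right. Symbols mark replicates 1 to 3 and bars the group means. Pnpla2, Lipe, Plin1 and Cidec lie higher on all cKO arrays and G0s2 lower, and the other 5 genes overlap.

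The triglyceride lipase gene Pnpla2 had log2 signals of 14.06, 14.77 and 14.79 in cKO 1 to 3, against 13.70, 13.26 and 13.62 in Control 1 to 3. The groups did not overlap, and cKO 1 lay nearest to the Control arrays, 0.35 log2 units above the highest of them. The means were 14.54 ± 0.42 in cKO and 13.53 ± 0.24 in Control (SD, n = 3 each). The difference of 1.01 log2 units (SE 0.27, 95% interval 0.36 to 1.65) is a 2.01-fold higher signal. In whole muscle, a difference in RNA per cell and a difference in the number of cells of a type cannot be told apart.

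Lipe, the gene of hormone-sensitive lipase, had signals of 7.21, 7.63 and 7.28 in cKO 1 to 3, against 7.05, 6.57 and 6.85 in Control 1 to 3. Again the groups did not overlap, with a gap of 0.15 log2 units between the lowest cKO and the highest Control array. The difference was 0.55 log2 units (SE 0.20, 95% interval 0.07 to 1.02). Both lipase genes were lowest on Control 2. Among cKO arrays both were lowest on cKO 1.

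The inhibitor gene G0s2 went the opposite way. Its signals were 9.40, 9.41 and 9.70 in cKO 1 to 3, against 10.42, 10.56 and 9.96 in Control 1 to 3. All cKO arrays lay below all Control arrays, with Control 3 the nearest, 0.26 log2 units above cKO 3. The difference of -0.81 log2 units (SE 0.23, 95% interval -1.35 to -0.27) is a 1.75-fold lower signal in cKO.

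Abhd5, whose product activates ATGL, had signals of 8.99, 8.90 and 8.81 in cKO 1 to 3, against 9.05, 9.24 and 8.85 in Control 1 to 3. These ranges overlapped, and the difference was -0.15 log2 units (95% interval -0.58 to 0.28).

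Setting Pnpla2 against G0s2 on the same array removes any scaling shared by the whole array. Pnpla2 minus G0s2 was 4.66, 5.35 and 5.09 log2 units in cKO 1 to 3, against 3.28, 2.70 and 3.67 in Control 1 to 3. Each gene kept its groups apart, in opposite directions, so the lowest cKO array had to stand clear of the highest Control array. This difference averaged 5.03 ± 0.35 in cKO and 3.22 ± 0.49 in Control (SD, n = 3 each), which shows unequal change of the 2 genes by 1.82 log2 units. This pair was chosen after its values were seen, and no test is given for it.

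**Figure D2:**
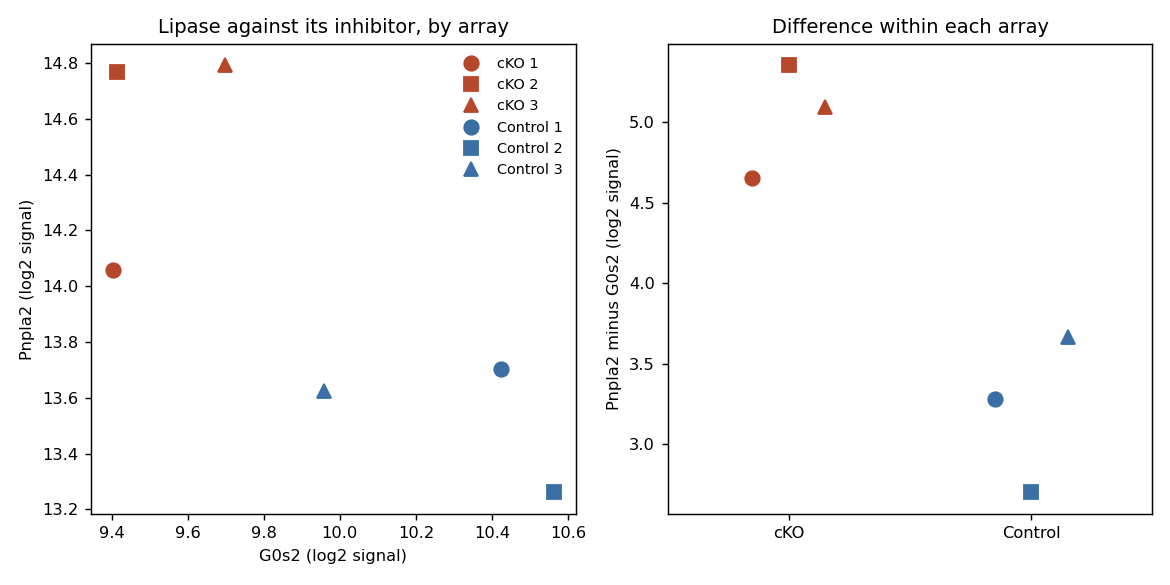
Left, log2 signal of Pnpla2 (vertical) against G0s2 (horizontal) on each of the 6 arrays. Right, Pnpla2 minus G0s2 in log2 units, cKO left and Control right. The cKO arrays sit at 4.66 to 5.35, above the Control arrays at 2.70 to 3.67.

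A looser call took an unadjusted limma p below 0.01 with a fold of 1.5 or more. It called Pnpla2 and G0s2, 2 of 10 genes against 0.669% of all features (0.576% higher and 0.093% lower in cKO). With a fold of 2 or more it called Pnpla2 alone, against 0.282% of all features. Only Pnpla2 was called without cKO 1 and only G0s2 without Control 3. Neither was called when any of the other 4 arrays was left out, after quantile normalization, after centring on array medians, or with the mouse-number range as a block. After quantile normalization 3 of the 10 genes stayed apart between groups, against 9.97% of all features, and the arrays of Pnpla2 and of Lipe overlapped, with cKO 1 at 13.87 and Control 1 at 14.02 for Pnpla2. After median centring 4 of 10 stayed apart, against 9.17%, with Lipe the one that overlapped.

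The mice carried numbers in 2 ranges, whose meaning the labels do not give: 733 (cKO 1), 715 and 716 (Control 1 and 2) are low, and 779 and 780 (cKO 2 and 3) and 776 (Control 3) are high. Pnpla2 differed by 0.58 log2 units among the low-numbered and 1.15 among the high-numbered mice, Lipe by 0.40 and 0.60, and G0s2 by -1.09 and -0.40. Plin1 differed by 0.58 and 0.24, and Cidec by 0.72 and 0.37. The groups of these 5 genes do not overlap, so their directions could not differ between the ranges. Of the other 5 genes, Plin2 kept its direction (0.40 and 0.21) and the remaining 4 did not. Plin5 differed by -0.07 and 0.99, Plin4 by -0.02 and 0.62, Cidea by -0.39 and 0.25, and Abhd5 by -0.16 and 0.0043.

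Plin2, the coat of droplets in most cells including fibres, had signals of 10.95, 10.55 and 10.39 in cKO 1 to 3, against 10.49, 10.60 and 10.27 in Control 1 to 3. The groups overlapped, and the difference was 0.18 log2 units (SE 0.22, 95% interval -0.34 to 0.70). Plin5, the coat of oxidative fibres, had signals of 9.14, 9.55 and 9.12 in cKO 1 to 3, against 9.33, 9.08 and 8.34 in Control 1 to 3. Here Control 3 stood low, and the other 5 arrays ran together. The difference was 0.35 log2 units (SE 0.30, 95% interval -0.35 to 1.06), and it was 0.07 without Control 3. For both fibre coats the interval includes differences of either sign.

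Plin1, the coat of the adipocyte droplet, had signals of 5.32, 4.91 and 5.10 in cKO 1 to 3, against 4.69, 4.79 and 4.76 in Control 1 to 3. The 3 Control arrays lay within a narrow band and cKO 2 stood 0.12 log2 units above it. The difference was 0.36 log2 units (SE 0.14, 95% interval 0.02 to 0.70).

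Cidec, which enlarges white-fat droplets, had signals of 5.61, 5.36 and 5.88 in cKO 1 to 3, against 4.59, 5.20 and 5.25 in Control 1 to 3. The groups did not overlap, and Control 1 was far below the other Control arrays. The difference was 0.61 log2 units (SE 0.23, 95% interval 0.06 to 1.15), and 0.39 without Control 1. Plin1 and Cidec kept their groups apart after quantile normalization and after median centring. Both were dim, and were the 2 genes that did not pass a filter at the 75th percentile of the array.

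Plin4 had signals of 12.15, 12.90 and 12.46 in cKO 1 to 3, against 12.23, 12.11 and 12.06 in Control 1 to 3. Only cKO 1 fell among the Control arrays, and the difference of 0.37 log2 units (SE 0.24, 95% interval -0.20 to 0.94) became 0.55 without cKO 1 and 0.17 without cKO 2. Plin4 and Plin5 are neighbouring genes. Their within-array difference was 3.01, 3.34 and 3.34 log2 units in cKO 1 to 3, against 2.91, 3.03 and 3.72 in Control 1 to 3, which overlapped.

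Cidea, a droplet protein known from brown fat, had signals of 7.51, 7.19 and 7.12 in cKO 1 to 3, against 7.86, 7.94 and 6.91 in Control 1 to 3. The low-numbered arrays (cKO 1, Control 1 and Control 2) were the 3 highest. The difference was -0.30 log2 units (SE 0.30, 95% interval -1.03 to 0.43), and -0.63 without Control 3.

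**Figure D3:**
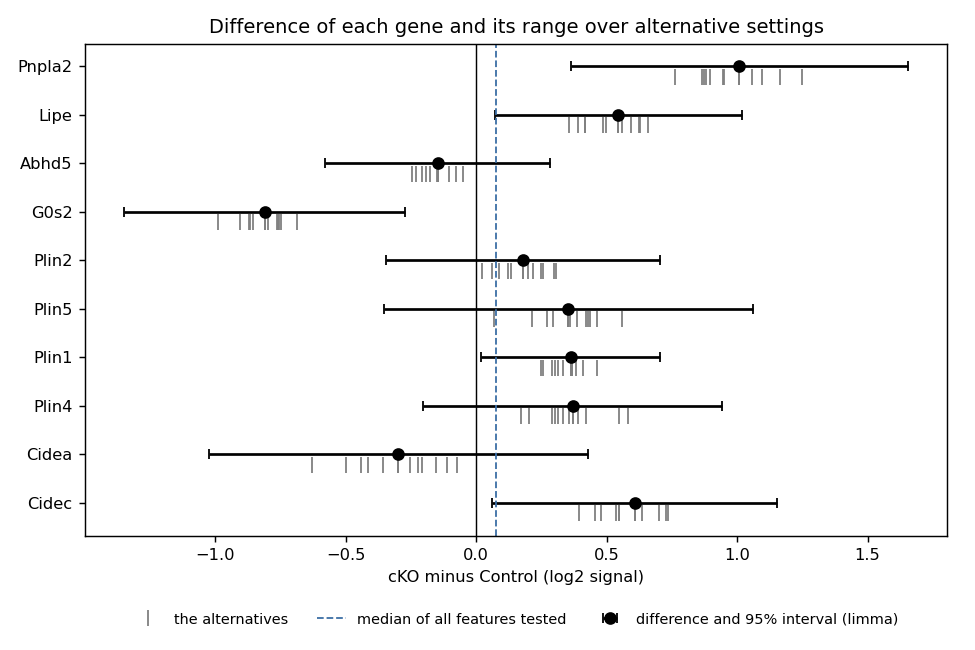
Difference of each gene (horizontal axis, cKO minus Control in log2 units). Points and bars are the limma estimate with its 95% interval, grey ticks the values under the alternative settings, and the dashed line the median of all features tested, 0.07. No tick lies on the other side of 0 from its point. The intervals shown for Pnpla2, Lipe, G0s2, Plin1 and Cidec exclude 0. Over the alternative settings, only that of G0s2 always excluded 0.

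Markers of white adipocytes, a cell type that can adhere to a dissected muscle, are given beside the adipocyte coats. Of 17 markers listed, 15 had a feature and 13 passed the filter. Of the 13, 8 were higher and 5 lower in cKO, where 65.8% of all features were higher. In limma 0 passed the adjusted threshold and 1 had an unadjusted p under 0.05, against 4.5% of all features. Without overlap 2 were higher (Cyp2e1 and Pck1) and 0 lower, against 8.95% and 2.05% of all features. The median difference was 0.21 log2 units, against 0.07 for all features tested. The mean log2 signal of the 15 was 5.83 to 6.33 on cKO arrays, against 5.74 to 5.99 on Control arrays. Adipoq, the adiponectin gene and the most specific marker of the list, had signals of 6.74, 5.60 and 6.13 in cKO 1 to 3, against 5.50, 5.75 and 5.87 in Control 1 to 3. It was highest on cKO 1, and its groups overlapped through cKO 2. Plin1 was highest on cKO 1 as deposited, but on cKO 3 after quantile normalization, with 5.11, 4.95 and 5.16 in cKO 1 to 3, against 4.71, 4.91 and 4.73 in Control 1 to 3. The leptin gene Lep had signals of 5.08, 4.41 and 4.94 in cKO 1 to 3, against 4.32, 4.20 and 4.59 in Control 1 to 3, which overlapped in the same way. Cyp2e1, an oxidase gene of fat and liver, had 7.05, 6.22 and 6.85 in cKO 1 to 3, against 5.74, 6.08 and 5.60 in Control 1 to 3, and did not overlap (0.90 log2 units, SE 0.25). The 3 brightest markers, Fabp4, Aqp7 and Pparg, differed by -0.06, -0.09 and -0.02 log2 units (SE 0.24, 0.48 and 0.26). Fabp4 and Aqp7 were highest on Control 1, as were the endothelial markers Cdh5, Kdr and Pecam1. Whether these 2 genes report fat cells alone was not tested. Fat-cell content was not measured, and its part in the values of Plin1, Cidec and the lipases was not tested.

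**Figure D4:**
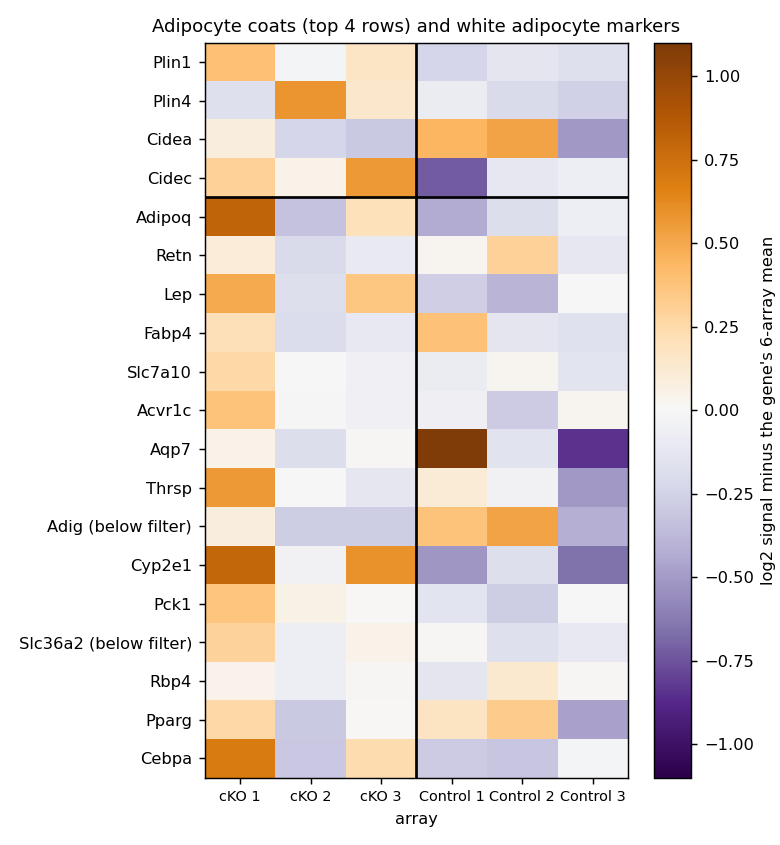
Log2 signal minus the 6-array mean of each gene (colour) for the 4 adipocyte coats and 15 white adipocyte markers (rows) on the 6 arrays (columns, cKO left). Adipoq, Lep, Cyp2e1 and Cebpa are high on cKO 1, the array with the highest median signal, while Plin4 is highest on cKO 2 and Cidea on Control 2.

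Brown-fat markers were mostly dim. Of 10 listed, 4 passed the filter, 1 higher and 3 lower in cKO, where 65.8% of all features were higher. The defining gene Ucp1 did not pass the filter, with 3.44, 3.28 and 3.18 in cKO 1 to 3, against 3.45, 3.30 and 3.16 in Control 1 to 3. The brightest, Cox7a1, is also a muscle gene of the respiratory chain. It had 17.22, 17.23 and 17.01 in cKO 1 to 3, against 17.75, 17.97 and 17.01 in Control 1 to 3, with Control 3 below the other Control arrays, as for Cidea. Ebf2, a regulator of brown fat, differed by 0.23 (SE 0.13), and Dio2, which activates thyroid hormone, by -0.33 (SE 0.14), each without overlap of the groups. Thus 1 of the 4 was higher and 1 lower without overlap, against 8.95% and 2.05% of all features.

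The rest of the pathway for building and emptying droplets was read from a list of 34 genes, of which 31 had a feature and 26 passed the filter. In limma 0 passed the adjusted threshold and 0 were called at an unadjusted p under 0.01 with a fold of at least 1.5. Of the 26, 19 were higher and 7 lower in cKO, a share of higher genes near the 65.8% of all features. Without overlap 6 were higher and 1 lower, against 8.95% and 2.05% of all features. Their median difference was 0.09 log2 units, near the 0.07 of all features tested. Fitm1, which helps droplets form in muscle, had signals of 14.48, 14.27 and 14.45 in cKO 1 to 3, against 13.70, 13.77 and 14.19 in Control 1 to 3, a difference of 0.51 (SE 0.21). Gpam, which catalyses the first step of glycerolipid synthesis, differed by 0.49 (SE 0.21). Abhd6, a monoacylglycerol lipase gene, differed by 0.44 (SE 0.15), and Bscl2, the gene of the droplet-forming protein seipin, by 0.29 (SE 0.12). The groups of these 4 genes did not overlap.

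Genes that take up and oxidise fatty acids in oxidative fibres showed no common direction as a list, where 65.8% of all features were higher. Without overlap 2 were higher and 2 lower, against 8.95% and 2.05% of all features. Among the oxidation enzymes, Acadvl, Acadl, Hadha, Hadh and Acaa2 differed by -0.13 to -0.38 log2 units, Acadl without overlap, and Hadhb by 0.0054. Among the high-numbered mice Acadl differed by -0.36, but Acadvl, Hadha, Hadh and Acaa2 by 0.23, 0.0008, 0.39 and 0.46. Other genes of the list were higher in cKO, among them Cpt1b (0.18), Cpt2 (0.16), Slc25a20 (0.24) and Mlycd (0.46), all with overlap. Of 28 listed, 26 passed the filter, with 13 higher and 13 lower, 0 past the adjusted threshold in limma, 0 called at an unadjusted p under 0.01 with a fold of at least 1.5, and a median difference of -0.0028 log2 units. The mitochondrial acyl-CoA thioesterase gene Acot2 had signals of 13.30, 15.21 and 15.47 in cKO 1 to 3, against 12.67, 12.43 and 13.00 in Control 1 to 3. Its groups did not overlap, and cKO 2 and 3 stood well above cKO 1, as for Pnpla2. The difference was 1.96 log2 units (SE 0.57). Its close paralog Acot1, which probes may not fully separate from Acot2, differed by 0.63 (SE 0.23). Acadm, the medium-chain dehydrogenase gene, had 16.29, 16.44 and 16.29 in cKO 1 to 3, against 16.70, 16.78 and 16.69 in Control 1 to 3, a difference of -0.38 (SE 0.16) without overlap. Decr1, needed to oxidise unsaturated fatty acids, differed by -0.52 (SE 0.28) and overlapped.

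Genes that signal to the lipases gave 22 of 28 listed past the filter, with 17 higher and 5 lower (65.8% of all features were higher), 0 past the adjusted threshold and 0 at an unadjusted p under 0.05. Their median difference was 0.11 log2 units. The kinase gene Akt2, which carries the insulin signal that restrains lipolysis, had 10.27, 10.02 and 10.03 in cKO 1 to 3, against 9.79, 9.69 and 9.72 in Control 1 to 3, a difference of 0.38 (SE 0.17) without overlap. The insulin receptor substrate gene Irs2 differed by 0.82 (SE 0.52), the adenylate cyclase gene Adcy9 by 0.38 (SE 0.22) and the adipogenic factor gene Cebpa by 0.42 (SE 0.26), all with overlap. Cebpa and Pparg belong to the white adipocyte list too.

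Of 18333 other tested genes, the 3 whose pattern over the 6 arrays was nearest to that of Pnpla2 were Cat, A730036I17Rik and Ap5s1. Nearness was the mean absolute difference between the deviations of each gene from its own mean, which was 0.08, 0.11 and 0.11 log2 units, where Pnpla2 itself deviated by 0.50 on average. Cat, the catalase gene, had signals of 16.05, 16.59 and 16.83 in cKO 1 to 3, against 15.71, 15.43 and 15.73 in Control 1 to 3. Lipe, the nearest of the other 9 lipid droplet genes, ranked at 154 with 0.26. For Plin1 the nearest were Gm12161, Tnfrsf1a and Tspan4 (0.02, 0.03 and 0.03, with Plin1 deviating by 0.19), and for Plin5 they were 2310057M21Rik, Slc25a34 and Rhobtb1 (0.10, 0.12 and 0.13, with Plin5 deviating by 0.25).

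Across the whole series, the median log2 signal was highest on cKO 1, at 4.37, against 4.13 or less on the other 5 arrays. This array also had the lowest weight in limma (0.254, against 0.589 to 4.01). Slow-fibre markers of soleus were bright, with a mean log2 signal of 16.15 to 16.23 on cKO arrays, against 16.08 to 16.26 on Control arrays. Myh7, Atp2a2 and Tnnc1 were the brightest. Atp2a2, at 19.67 to 19.84 over the 6 arrays, lay near the ceiling of the scale, where a difference may not show. Myh7 was at 19.20 to 19.38. Fast-fibre markers (Myh2, Tnnt3 and Atp2a1 the brightest, all near the ceiling of the scale) had means of 15.97 to 17.53 on cKO arrays, against 15.53 to 16.45 on Control arrays, with cKO 2 highest. These 3 were flat, and the height of cKO 2 came from others, such as Actn3 at 15.67 on cKO 2, against 7.97 to 11.47 on the other 5 arrays, and Myh4 at 16.88, against 11.72 to 13.67. Lipe, Plin4 and Plin5 were also highest on cKO 2, and without it Pnpla2 differed by 0.89, Lipe by 0.42, Plin4 by 0.17 and Plin5 by 0.21 log2 units. The part of fibre type in these values was not tested. Tendon markers (Thbs4, Angptl7 and Fmod the brightest) had means of 6.80 to 7.05 in cKO, against 5.55 to 6.30 in Control, so that the list means of the groups did not overlap. Of 9 tested tendon genes 9 were higher in cKO, against 65.8% of all features, and 6 were higher without overlap, against 8.95%, while Thbs4 overlapped. Their part in the lipase values was not tested. Macrophage markers (Lyz2, Mrc1, Cd163) had means of 6.22 to 7.06 in cKO, against 5.97 to 6.51 in Control. Of 10 tested, 9 were higher in cKO, against 65.8% of all features, and 1 lower, with a median difference of 0.32 log2 units. Without overlap 0 were higher and 1 lower, against 8.95% and 2.05% of all features. The part of macrophages in the values of the 10 lipid droplet genes was not tested. Endothelial markers (Cdh5, Kdr, Pecam1) had 8.87 to 9.08 in cKO, against 8.68 to 9.64 in Control, and fibroblast markers (Dcn, Dpt, Cd34) 9.69 to 10.52 in cKO, against 9.80 to 10.48 in Control. All 3 of these lists overlapped between groups. Mbtps1 had signals of 7.77, 7.44 and 7.11 in cKO 1 to 3, against 7.39, 7.05 and 7.24 in Control 1 to 3, which overlapped (0.21 log2 units, SE 0.21). It is not known which part of the gene the feature covers, so this does not check the labels.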

How the data were processed

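The authors deposited 1 value per feature and array, read here as log2 signals from their range. Their log base, background correction, normalization, software and build are not given in the sources used here. Of 72688 rows, 6732 without values were left out. Gene symbols came from the platform annotation, where a symbol repeated within a cell was counted once, and were updated by Entrez identifier through RefSeq (22818 of 30604 features matched). Features exceeding their array's median on 3 or more arrays were tested with limma 3.58.1 in R 4.3.3 (lmFit, eBayes with an intensity trend, genotype only), two-sided, with Benjamini-Hochberg adjustment over all 33334 features. The procedure was also run on simulated data with independent noise and no shift shared by an array, so that run does not cover such shifts. Replicates are separate mice. Deviations of same-numbered arrays of both groups had correlations of 0.128, -0.204 and 0.205. These were not compared with those of differently numbered arrays, so they do not settle whether the numbers pair the mice. The number of arrays limits the precision. Python 3.11.15 with pandas 2.3.3 made the tables, and matplotlib 3.10.9 the plots.

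The 10 genes and the gene lists were chosen with earlier results of these data known. The text names all 10, Mbtps1, the 4 genes of smallest p in each pathway list, the 3 brightest of each marker list, and the 3 nearest in pattern to Pnpla2, Plin1 and Plin5. Adipoq, Lep, Cyp2e1, Ucp1, Actn3, Myh4, Acadvl, Acadl, Hadha, Hadhb, Hadh and Acaa2 were named after their values were seen. So were Pck1, Cpt1b, Cpt2, Slc25a20 and Mlycd. Acsl1, Acsl3 and Pnpla8, among others, were not analysed here.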

Additional observations from a re-analysis of the deposited data

How the results depend on the processing

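All 10 genes kept the direction of their difference under every alternative run, and none passed limma's adjusted p of 0.05 in any. The alternatives were quantile normalization, median centring, array weights, no filter or one at the 75th percentile, a robust or an untrended eBayes, a replicate block, the mouse-number range as a block, that block with quantile normalization, and each array left out. With the filters, the robust or untrended eBayes and the replicate block, the estimate itself is the same, so its direction could not change. Leaving out 1 array, weighting the arrays or using the number range as a block cannot reverse any of the 5 genes whose groups do not overlap. Over all alternatives Pnpla2 ran from 0.76 to 1.25 log2 units, G0s2 from -0.99 to -0.69 and Lipe from 0.36 to 0.66. Cidec ran from 0.39 to 0.73 and Plin1 from 0.25 to 0.46. The unadjusted p of limma reached 0.194 for Lipe, 0.118 for Cidec, 0.113 for Plin1 and 0.0736 for Pnpla2, so these intervals then included 0. For G0s2 it was 0.0386 or less. The count of 2 genes with an unadjusted p below 0.01 and a fold of 1.5 or more was 0 after quantile normalization, median centring, the replicate block, the number range as a block and that block with quantile normalization. It was 1 with the 75th percentile filter and with a fold of 2 or more, and 0 to 1 with an array left out. The 5 genes whose groups do not overlap became 3 after quantile normalization (9.97% of all features) and 4 after median centring (9.17%); both were added after the values were seen. Over all features, the count of 223 was 130 after median centring, 823 with array weights, 217 with the replicate block and 95 to 960 with an array left out. Its split of 192 higher and 31 lower was 112 and 59 after quantile normalization, 136 and 134 with the number range as a block too, and 70 and 70 without Control 1, so the excess of higher calls depends on these settings. Past the adjusted threshold the count ran from 0 to 14 with an array left out, 14 being without Control 3. The cause of these shifts was not tested. The mean over several features of a gene was not run, since each gene had 1.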
